A study of Mus musculus with 4 samples.

Results

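A pair of libraries of splenic CD4+ T cells was set side by side, one labelled as a double knockout of Itch and WWP2 and one of wild type, out of the 4 libraries of the study. They were chosen by their labels, not by any measured value. Of 21937 genes in the count table, 9926 were measured, meaning a mean over the 4 libraries of at least 2 CPM (the read count scaled to a common library size). Total counts per library were between 17130747 and 17990392. Another 5528 genes had reads but fell under that minimum, and 6483 had none. The mice were of strain B6 and 6 weeks old, and all cells, wild type included, had been stimulated with phorbol 12-myristate 13-acetate (PMA) and ionomycin, so no resting cells are compared here. The other libraries were Itchf/f Cd4cre (Itch KO), in which the Cre recombinase is driven by Cd4 regulatory sequence and so acts in T cells, and WWP2-/- (WWP2 KO). For the double knockout the label gives both genes but not how Itch was removed. Neither the number of mice behind a library nor the time of stimulation is stated in the labels. Each genotype has 1 library, so there is no spread between replicates, no test and no p-value. Intervals in brackets are exact 95% intervals of a fold and cover counting error only.

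Itch and WWP2 are ubiquitin ligases of the NEDD4 family, which use WW domains to bind proline-rich motifs of their substrates and a HECT domain to pass ubiquitin on. Loss of Itch is known for inflammation with an excess of type 2 helper T cells, the CD4+ cells that make IL-4, IL-5 and IL-13. PMA acts on protein kinase C and ionomycin lets calcium in, so the pair starts NFAT, AP-1 and NF-kB signalling without the antigen receptor. By its labels, the comparison asks what stimulated T cells express without both ligases.

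The library with the double knockout label is called the labelled library from here on, because of its Wwp2 reads. It held 1135 of them, WWP2 KO held 4, Itch KO 1332 and wild type 1363, which sets the labelled library 1.29-fold under wild type (1.19 to 1.39). These reads put the double knockout label in doubt, and each difference from wild type belongs to a library, not to a known genotype. Reads of Itch numbered 2389 in the labelled library, against 2083 in wild type, 1914 in the Itch KO library and 1996 in WWP2 KO. These totals cover the whole gene, and the labels do not say which part of Itch was removed, so the totals check neither Itch label. Here and throughout, a row of 4 read numbers runs wild type, Itch KO, WWP2 KO, labelled library. A pair of genes chosen after their values were seen set the labelled library beside WWP2 KO. Mid1, which encodes a ubiquitin ligase on microtubules, had 89, 185, 2570 and 3839 reads, and Klk1b22, a kallikrein of a family with near-identical copies whose reads are hard to assign, had 0, 0, 115 and 508. Both genes were therefore high in the WWP2 KO and the labelled library and low in the other two.

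Of the 14 measured NEDD4 family ligases and adaptors, 4 were at least 2-fold higher in the labelled library and 0 lower. The background over all measured genes was 12.3% for such higher genes and 6.34% for lower ones, and every count of a gene group is read against these shares. Those past the rule were the adaptors Arrdc4 (37, 66, 97 and 149 reads), Arrdc1 (446, 550, 536 and 1007) and Txnip (688, 786, 917 and 1771), all of the arrestin family, and the ligase Nedd4 (45, 68, 34 and 157). Wwp1, a relative of Wwp2, stood at a log2 ratio of -0.15 to wild type, Smurf1 at -0.10, Smurf2 at -0.47 and Nedd4l at -0.36. The Itch activators Ndfip1 and Ndfip2 stood at 0.47 and 0.29.

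Past the rule means a log2 ratio of 1 or more in size together with a counting interval that leaves out a fold of 1. In total 1220 genes were higher and 629 lower in the labelled library. Of the higher genes 532 reached 4-fold and 265 reached 8-fold, against 87 and 18 of the lower ones. The median log2 ratio of all measured genes was -0.03, with quartiles of -0.42 and 0.45. The split differed with the wild-type level of a gene, in part through the minimum itself. Genes under 2 CPM in wild type, some of them in the class between 1 and 10 CPM, were measured only through another library. Of 2448 genes at 100 CPM or more in wild type, 75 (3.06%) were higher and 191 (7.80%) lower, while of 2085 genes between 1 and 10 CPM, 646 (31.0%) were higher and 172 (8.25%) lower. The 119 measured genes under 1 CPM in wild type were all higher, and each had passed the minimum only through another library. Among the 9559 genes with at least 2 CPM in wild type, 9.50% were higher and 6.58% lower. The higher genes took 11.6% of the reads of the labelled library against 3.23% of those of wild type, with 5.003% for Itch KO and 3.41% for WWP2 KO, and the lower genes took 3.49% against 8.47%, with 7.20% and 8.18%.

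**Figure D1:**
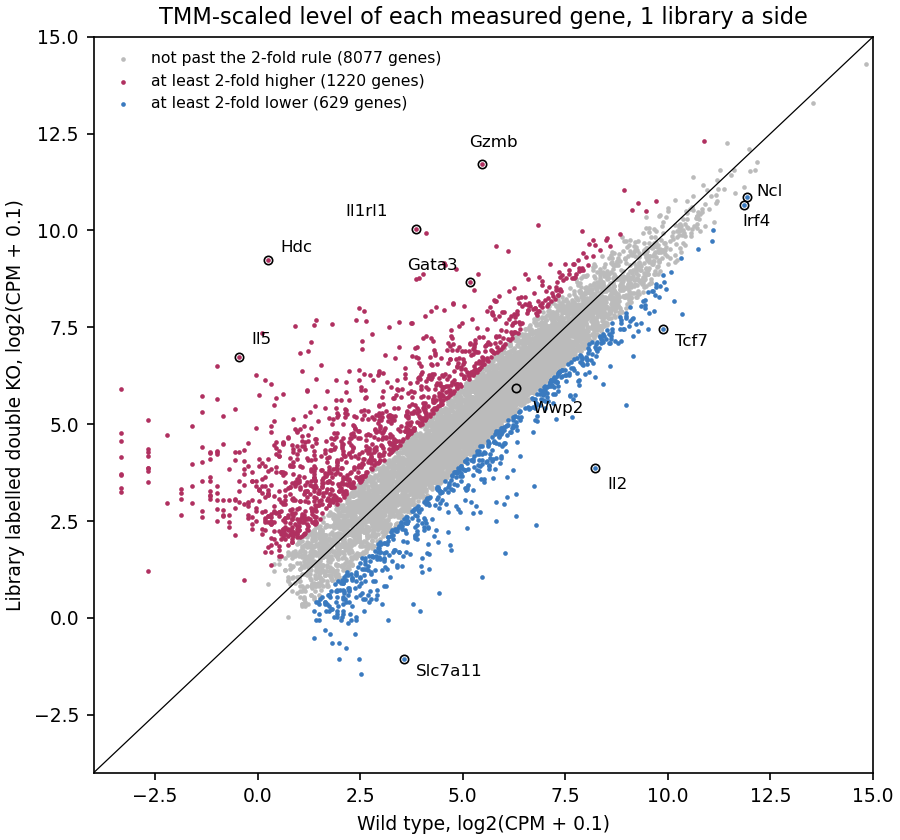
TMM-scaled level of each of the 9926 measured genes in wild type (x axis) and in the labelled library (y axis), both as log2(CPM + 0.1), 1 point a gene and 1 library an axis. The 1220 genes past the 2-fold rule above the diagonal reach farther from it than the 629 below, and circles mark named genes, Wwp2 among those not past the rule.

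By amount of transcript, the largest rise was that of Gzmb, the protease granzyme B, with 767, 3025, 480 and 62971 reads. The labelled library read it 76.6-fold above wild type (71.3 to 82.3). Amounts in CPM also count transcript length, so the order of genes by amount is an order of reads. Next came Actg1, cytoplasmic gamma-actin, with 32530, 44038, 30878 and 94774 reads, a 2.72-fold difference (2.68 to 2.75). More genes of the cytoskeleton were among the 12 largest rises. Vim, the intermediate filament vimentin, was 9.76-fold higher (9.32 to 10.2), Tmsb4x, the actin-binding thymosin beta 4, 2.73-fold (2.67 to 2.79) and Coro1a, the actin regulator coronin 1A, 2.07-fold (2.03 to 2.11).

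Receptors and oxygen-response factors made up more of the 12. Icos, a costimulatory receptor of the CD28 family, had 8425, 18934, 8003 and 39346 reads and was 4.36-fold higher (4.26 to 4.46). Il1rl1, the receptor for IL-33 that marks type 2 cells, had 249, 1785, 266 and 19545 reads and was 73.2-fold higher (64.6 to 83.3). Epas1, the hypoxia-inducible factor HIF-2alpha, had 298, 1134, 279 and 18116 reads and was 56.7-fold higher (50.6 to 63.8), while its relative Hif1a was 2.07-fold higher (2.03 to 2.11). Penk, the opioid precursor proenkephalin, was 13.8-fold higher (13.0 to 14.8), the chromatin factor Baz1a 4.24-fold (4.10 to 4.38) and the lysosomal protein gene Laptm5 2.63-fold (2.57 to 2.69). In all 12 the labelled library was the highest of the 4. Itch KO lay between wild type and the labelled library for 11 of them and below wild type for Coro1a.

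The largest falls in amount included abundant nucleolar and lymphocyte genes. Ncl, the nucleolar protein nucleolin, had 64167, 66429, 58419 and 30169 reads, 2.28-fold lower in the labelled library (2.25 to 2.31). Irf4, a transcription factor induced by antigen receptor signals, had 67135, 69910, 66244 and 34474 reads and was 2.09-fold lower (2.06 to 2.11). Cd69, an early activation receptor that retains cells in tissue, was 2.53-fold lower (2.49 to 2.58), with 37336, 29796, 32707 and 15799 reads. B4galnt1, a ganglioside synthase, was 5.59-fold lower (5.41 to 5.78), Mbp 3.90-fold (3.78 to 4.02), Slc7a5, a carrier of large neutral amino acids, 2.73-fold (2.66 to 2.81) and the interferon-induced GTPase gene Gbp2 2.34-fold (2.29 to 2.39). The others were Npm1, Mybbp1a, Zfp36l1, Tcf7 and Foxp1, of which Npm1 and Mybbp1a are nucleolar. For all 12 the labelled library was the lowest of the 4. Scaled by total counts alone, Irf4 stood at a log2 ratio of -0.99, Npm1 at -0.9997 and Mybbp1a at -0.95, none of them past the rule.

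**Figure D2:**
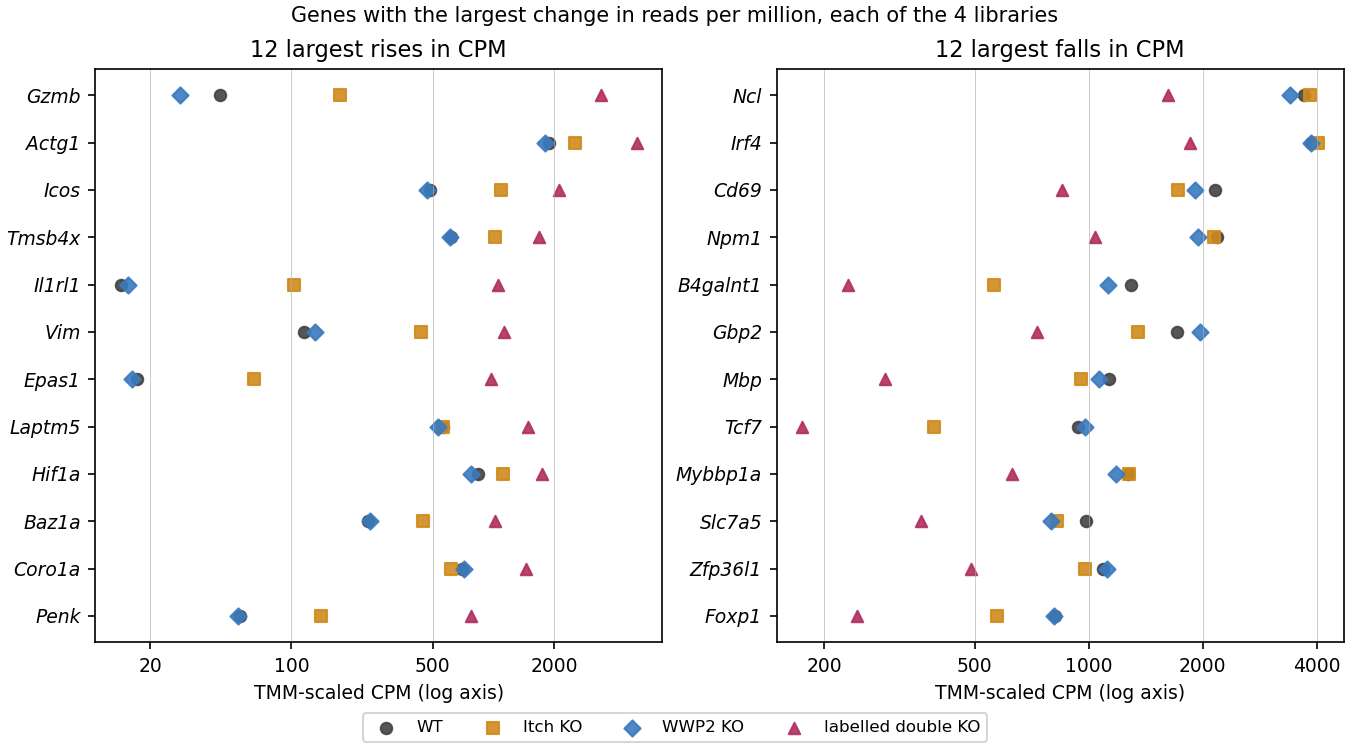
TMM-scaled CPM (log axis) of the 12 genes with the largest rise (left) and the 12 with the largest fall (right) from wild type to the library labelled double KO, 1 point per library. Triangles, the labelled library, lie to the right of all other points on the left and to the left of them on the right. WWP2 KO lies close to wild type for most genes, but Gzmb is at 28.0 CPM in WWP2 KO and 44.2 in wild type.

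Genes already read at 10 CPM or more in wild type gave further leaders. Lgals1, the lectin galectin-1, had 252, 1156, 220 and 7919 reads and was 29.3-fold higher (25.9 to 33.4). Ptpn13, a large tyrosine phosphatase, was 28.6-fold higher (25.3 to 32.5) with 265, 1267, 328 and 8136 reads. The metalloprotease gene Adam8 was 28.6-fold higher (25.4 to 32.3), the protease gene Capn2 24.9-fold (22.5 to 27.6) and the chemokine receptor gene Ccr2 23.2-fold (21.1 to 25.7). Asb2, a substrate adaptor of a cullin ubiquitin ligase, was 18.3-fold higher (15.8 to 21.3) and Calcrl, the receptor for calcitonin gene-related peptide, 17.9-fold (16.4 to 19.7). At the other end stood Parp8, 8.67-fold lower (7.38 to 10.2) with 1359, 714, 1097 and 168 reads. Slc7a11, Amigo2, Ncf1 and Il2 had the lowest ratios of all genes at this level, with 7, 37, 57 and 270 reads in the labelled library against 203, 760, 1136 and 5139 in wild type. On its 7 reads Slc7a11 was 31.1-fold lower with a wide interval (14.8 to 78.3).

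Cytokine genes differed by class. Of 12 type 2 and related cytokines, 9 were measured, 8 were at least 2-fold higher and 0 lower. Only 4 of the 9 had 2 CPM in wild type, of which 3 were higher, and 5 entered through their level elsewhere. Il5 had 11, 2290, 11 and 1990 reads and Il13 had 117, 3206, 219 and 2997, so that Itch KO and the labelled library both lay far above the others. Il4, the defining cytokine of the type 2 cell, had 27, 236, 31 and 460 reads, and Il3, a growth factor of mast cells and basophils, 16, 109, 3 and 182. For Il10, the regulatory cytokine, the reads were 103, 455, 95 and 4524, and for Il6 they were 1, 57, 1 and 641, with the labelled library far above Itch KO. Il9 was also higher than wild type, at a log2 ratio of 3.76, but had 406 reads in Itch KO and 41 in the labelled library. Areg, an epidermal growth factor ligand tied to tissue repair, had 235, 710, 288 and 2000 reads and was 7.94-fold higher than wild type (6.93 to 9.13). Csf2, the macrophage growth factor GM-CSF, was not past the rule at -0.53. Il24 (0, 16, 0 and 100 reads) and Il31 (1, 13, 0 and 6) were under the minimum, and Il25 had no read.

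Of 13 cytokines of type 1 and type 17 cells, Il2 and other T cell cytokines, 11 were measured, 6 were at least 2-fold lower and 1 higher. All 11 had at least 2 CPM in wild type. Il2, the T cell growth factor, had 5139, 5779, 4226 and 270 reads. The lymphotoxin gene Lta was 3.80-fold lower (3.45 to 4.20) with 1827, 2039, 2218 and 515 reads, its partner Ltb 2.97-fold (2.84 to 3.10) and Tnfsf11, the osteoclast factor RANKL, 3.30-fold (3.02 to 3.62). Il22 had 129, 192, 100 and 26 reads and Tnf 6662, 6270, 5690 and 1673. Osm, a cytokine of the IL-6 family, was the member that was higher, 3.66-fold (3.09 to 4.37). Values not past the rule were 0.76 for Il21, 0.11 for Tgfb1, -0.25 for Lif and -0.63 for Ifng. In all 6 lower genes the labelled library was the lowest of the 4. Il17f (2, 28, 0 and 70 reads) and Il17a (0, 5, 0 and 8) were under the minimum.

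The promoters of Il5, Il13 and Il2 are shown because the first 2 genes were far above wild type and the third far below (RefSeq, build GRCm38.p6, which is not the authors' build). Each runs from 250 bases before to 50 after the gene's start, on the gene's own strand, with capitals for GATAA, the core bound by GATA factors, and GGAAA, the core bound by NFAT, read on both strands (TTATC and TTTCC on the other).
Il5, chr11:53720544-53720843, plus strand: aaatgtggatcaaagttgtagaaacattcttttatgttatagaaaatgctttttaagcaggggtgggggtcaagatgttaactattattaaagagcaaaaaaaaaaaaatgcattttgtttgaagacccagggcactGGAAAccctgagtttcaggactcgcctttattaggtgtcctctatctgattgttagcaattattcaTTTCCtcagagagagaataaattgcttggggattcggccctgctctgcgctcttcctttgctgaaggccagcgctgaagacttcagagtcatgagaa
Il13, chr11:53634653-53634952, minus strand: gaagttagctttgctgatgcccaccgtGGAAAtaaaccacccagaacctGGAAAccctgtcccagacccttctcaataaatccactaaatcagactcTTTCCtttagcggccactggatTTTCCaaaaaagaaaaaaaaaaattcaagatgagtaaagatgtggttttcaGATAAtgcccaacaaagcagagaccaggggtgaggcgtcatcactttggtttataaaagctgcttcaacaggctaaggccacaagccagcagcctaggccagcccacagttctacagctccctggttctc
Il2, chr3:37125905-37126204, minus strand: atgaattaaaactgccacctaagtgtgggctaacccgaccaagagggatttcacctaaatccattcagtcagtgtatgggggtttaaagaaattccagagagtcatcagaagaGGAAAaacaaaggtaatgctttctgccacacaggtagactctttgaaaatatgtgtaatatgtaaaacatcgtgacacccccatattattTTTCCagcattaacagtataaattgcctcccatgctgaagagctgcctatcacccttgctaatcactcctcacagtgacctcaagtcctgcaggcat
GGAAA was found 2 times in Il5, 4 times in Il13 and 2 times in Il2, and is held by 61.3% of all 32851 promoter windows. GATAA was found 1 time in Il13 and 0 times in the others, and is held by 25.4% of windows.

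Transcription factors of effector and naive cells stood apart. Of 20 measured effector factors 10 were at least 2-fold higher (8 of the 18 with 2 CPM in wild type) and 2 lower, and of 15 naive-state factors 1 was higher and 6 lower. Prdm1, the repressor Blimp-1, had 228, 889, 211 and 3620 reads and was 14.8-fold higher (13.0 to 17.01). Maf, an activator of Il4 and Il10, was 10.1-fold higher (9.15 to 11.1) with 470, 1173, 509 and 5066 reads, and Nfil3 6.98-fold (6.13 to 7.98). Gata3, the type 2 lineage factor, had 621, 2814, 654 and 7536 reads, and Pparg, a nuclear receptor of fat cells and type 2 cells, 14, 91, 6 and 252. In each of these 5 genes the labelled library was highest, Itch KO next, and wild type and WWP2 KO low.

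The remaining effector factors past the rule were Vdr at 2.65, Zeb2 at 1.54, Batf at 1.34, Ahr at 1.12 and Hif1a at 1.05 on the log2 scale. Tbx21, the type 1 factor T-bet, was lower at -1.03, as was Irf4 at -1.06, but neither passed with total counts alone (-0.96 and -0.99). Not past the rule were Atf3 at 0.95, Runx3 at 0.94, Id2 at 0.72, Ikzf3 at 0.68, Ikzf2 at 0.54, Bhlhe40 at 0.43, Eomes at -0.48 and Rora at -0.75. Bhlhe41, with at most 7 reads, was under the minimum.

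Id3, an inhibitor of E proteins kept high in naive cells, had the lowest ratio of the naive factors, with 1109, 354, 750 and 140 reads, 8.49-fold lower (7.12 to 10.2). Tcf7, the factor TCF-1 that maintains naive and memory cells, had 16212, 6746, 16727 and 3257 reads and was 5.34-fold lower (5.14 to 5.54). Bach2, a repressor of effector genes, was 5.20-fold lower (4.89 to 5.53) with 5943, 3497, 6428 and 1225 reads. Foxp1, a factor of quiescence, was 3.34-fold lower (3.23 to 3.46), Lef1 2.55-fold (2.31 to 2.82), and Myb stood at -1.28. In each of these 6 Itch KO lay between wild type and the labelled library. The list was not uniform. Runx1 was higher at 1.39, and Ets1 at 0.93, Satb1 at 0.78, Foxo1 at 0.48, Klf2 at 0.35, Ikzf1 at 0.29 and Zeb1 at 0.02 lay at or above wild type without passing, with Klf3 at -0.37 and Bcl6 at -0.60 under it.

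**Figure D3:**
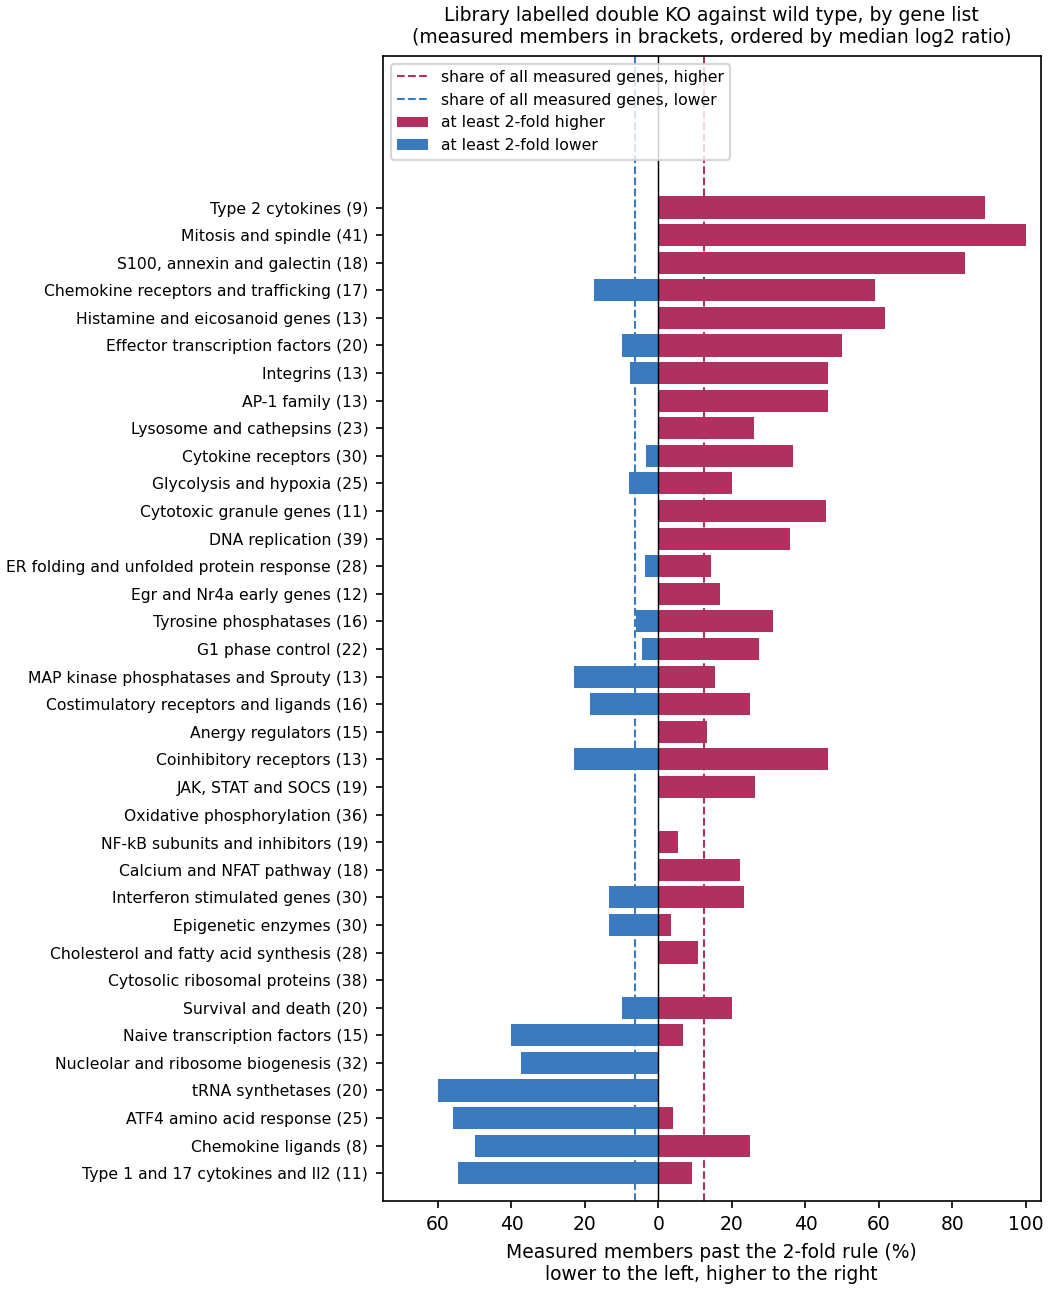
Share of the measured members of each gene list (number in brackets) at least 2-fold higher (bars to the right) or lower (bars to the left) in the labelled library relative to wild type. Dashed lines mark the shares over all measured genes, 12.3% higher and 6.34% lower. Mitosis genes reach 100% higher, and tRNA synthetase genes reach the farthest to the left with 12 of 20 lower.

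Receptors for cytokines were at least 2-fold higher in 11 of 30 measured cases (9 of the 28 with 2 CPM in wild type) and lower in 1. Beside Il1rl1, receptors of the IL-1 family led. Il1r1, the signalling receptor for IL-1, had 8, 20, 4 and 690 reads, and its decoy Il1r2 had 143, 290, 119 and 1489, a 9.71-fold difference (8.18 to 11.6). The 2 chains of the IL-12 receptor differed in direction. Il12rb1, shared with the IL-23 receptor, was 7.39-fold higher (6.59 to 8.31) with 332, 841, 349 and 2631 reads, and Il12rb2, the chain restricted to type 1 cells, was 2.36-fold lower (2.04 to 2.74) with 577, 615, 629 and 262. Below these receptors, 5 of 19 members of the JAK, STAT and SOCS families were higher and 0 lower. Socs3, a feedback inhibitor of cytokine signals, was 12.6-fold higher (11.3 to 14.1) and the kinase gene Jak3 5.37-fold (5.02 to 5.75), with 1016, 2121, 1376 and 5849 reads. Cish, a target of STAT5, stood at 1.43, Socs2 at 1.20, Stat6 at -0.69 and Jak2 at -0.91.

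Of 16 costimulatory genes 4 were higher and 3 lower, and of 13 coinhibitory genes 6 were higher and 3 lower. Tnfrsf8, the receptor CD30, was 24.7-fold higher (20.2 to 30.5) with 99, 301, 74 and 2624 reads, and the TNF receptor family members Tnfrsf9 and Tnfrsf4 stood at 1.47 and 1.27. Cd40lg, the helper signal to B cells, was lower at -1.27 and the adhesion receptor gene Cd226 at -1.66. Among inhibitory receptors Havcr2, which encodes TIM-3, was 79.8-fold higher (59.5 to 110) with 45, 486, 38 and 3850 reads, and Tigit 11.4-fold (10.5 to 12.3) with 715, 2721, 611 and 8719. Lower were Btla at -1.38, Cd200 at -1.34 and Cd5 at -1.24, each of them within 1.5-fold of wild type in both other libraries.

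Of 17 measured chemokine receptor and trafficking genes 10 were higher (9 of the 16 with 2 CPM in wild type) and 3 lower. Cxcr6, a receptor of tissue-resident T cells, was 5.25-fold higher (4.90 to 5.63) with 964, 2622, 716 and 5428 reads. Ccr7, the lymph node homing receptor, had 12601, 9584, 12378 and 3258 reads, and Ccr6 79, 60, 76 and 23. Among integrins 6 of 13 were higher (5 of the 12 with 2 CPM in wild type) and 1 lower. Itgb7 was 8.13-fold higher (7.45 to 8.89) and its partner Itgae, which together bind E-cadherin on epithelium, 19.3-fold (14.99 to 25.3), with 63, 337, 95 and 1304 reads. Itga5, a chain of the fibronectin receptor, was 5.95-fold lower (4.47 to 8.06). Of the S100, annexin and galectin genes 15 of 18 were higher and 0 lower, and 12 of the 15 members that had 2 CPM in wild type were higher too. Anxa2, a membrane-binding annexin, was 14.5-fold higher (12.7 to 16.7).

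Chemokine genes did not share a direction. Of 8 measured ligands 2 were higher (1 of the 6 with 2 CPM in wild type) and 4 lower. Cxcl3 had 15, 342, 27 and 1421 reads and Cxcl2 70, 300, 65 and 385, both ligands that draw neutrophils. Xcl1, which draws cross-presenting dendritic cells, was 10.3-fold lower (4.71 to 26.5) with 67, 57, 53 and 7 reads. Cxcl10, an interferon-induced ligand of CXCR3, was 4.37-fold lower (3.77 to 5.08) with 921, 423, 1154 and 226, and Ccl4 and Ccl3 stood at -1.80 and -1.81.

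Cytotoxic granule genes were higher in 5 of 11 measured cases and histamine and eicosanoid genes in 8 of 13, with 0 lower in either list. Of the members with 2 CPM in wild type, 3 of 9 and 5 of 10 were higher. Beside Gzmb, Gzma had 17, 345, 13 and 3040 reads, Gzmc 15, 23, 11 and 195 and Nkg7 41, 173, 28 and 254. Fasl stood at -0.89 and Serpinb9, an inhibitor of granzyme B, at 0.30, neither past the rule. Hdc, the enzyme that makes histamine, had 19, 433, 28 and 11148 reads. The receptors for lipid mediators followed, with Cysltr1 at 43, 764, 45 and 3518 reads, the prostacyclin receptor gene Ptgir at 21, 73, 39 and 832 and the leukotriene B4 receptor gene Ltb4r1 at 3, 52, 5 and 186. Enzymes of prostaglandin E synthesis stood lower, Ptges2 at -0.68 and Ptges3 at -0.71, without passing.

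Hdc is also a gene of basophils and mast cells, so their markers were read in the same libraries. Of 12 such genes, Fcer1a, Ms4a2, Tpsab1, Tpsb2, Mcpt4 and Cma1 had 0 reads in every library, Cpa3 had 2, 1, 0 and 1, Gata2 had 0, 2, 0 and 2 and Prss34 had 0, 0, 0 and 2. Mcpt8, the basophil protease, had 0, 0, 2 and 12 reads, and Cd200r3 had 56, 8, 35 and 14. Kit, which other cells express too, was 5.41-fold lower in the labelled library (4.28 to 6.91) with 429, 188, 493 and 85. The summed level of the list was 28.1, 11.5, 30.9 and 6.24 CPM, mostly from Kit. In bulk RNA, more cells of a type and more RNA per cell cannot be told apart.

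Components of the pathways that PMA and ionomycin start were read next. Of 18 calcium and NFAT genes 4 were higher and 0 lower, among them the calcium channel genes Itpr1 (3.71-fold, 3.48 to 3.97) and Itpr2, the calcineurin gene Ppp3cc and Nfatc2, 3.32-fold (3.05 to 3.62) with 670, 962, 700 and 2384 reads. Orai1 and Rcan1, the latter a calcineurin target, stood at -0.64 and -0.89. Of 13 AP-1 genes 6 were higher and 0 lower. Jun had 574, 1161, 719 and 2212 reads, a 3.60-fold difference (3.28 to 3.95), Fosb was 3.49-fold higher (3.20 to 3.80) and Fos 3.03-fold (2.84 to 3.23). Itch KO was between wild type and the labelled library in all 3. Of 12 early genes of the Egr, Nr4a and Ier type 2 were higher, near the share over all genes. They were Ier3 at 8.52-fold (6.70 to 10.99) and Egr1 at 2.11-fold (2.06 to 2.17), while Nr4a1 stood at 1.04-fold (1.02 to 1.06) and Nr4a3 at a log2 ratio of -0.46. Of 19 NF-kB subunits and inhibitors 1, Bcl3 at 2.55, was higher and 0 lower, with Nfkb1 and Malt1 lowest at -0.68 each.

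Feedback genes of these pathways differed in direction. Of 13 measured MAP kinase phosphatase and Sprouty genes 2 were higher, near the share over all genes, and 3 lower. The rest were not past the rule. Dusp10 and Dusp16, phosphatases that act on JNK and p38, were 6.06-fold (5.24 to 7.05) and 5.44-fold (4.91 to 6.04) higher, whereas Spry1, an inhibitor of Ras signalling, was 4.40-fold lower (4.04 to 4.81) with 2666, 4675, 3487 and 649 reads. For Spry1 Itch KO and WWP2 KO lay above wild type and the labelled library far below. Dusp2 at -1.15 and Spred1 at -1.11 were also lower. Of 16 tyrosine phosphatase genes 5 were higher and 1 lower. Ptpn3 was 12.9-fold higher (10.4 to 16.1) and Ptprj 9.68-fold (7.92 to 11.9). The lower one was Ptpn6, which encodes SHP-1, a phosphatase that damps antigen receptor signals, with 2391, 1174, 2214 and 1196 reads, equally low in Itch KO. Anergy regulators were higher in 2 of 15 cases (1 of the 14 with 2 CPM in wild type), near the share over all genes, and Rnf128, the anergy ligase GRAIL, had 14, 33, 15 and 111 reads.

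Of all the function lists, that of mitosis and spindle genes had the highest share past the rule. All 41 measured members were at least 2-fold higher in the labelled library, with a median log2 ratio of 3.34, and the remaining member, Cdc25c, was under the minimum. Of the 41, 25 had at least 2 CPM in wild type, and those 25 were higher too, with a median of 2.75. The range of all 41 ran from 1.11 for the spindle checkpoint gene Mad2l1 (225, 294, 208 and 524 reads) to 5.28 for the kinesin gene Kif18b (8, 137, 14 and 412 reads). Spc25, of the outer kinetochore, had 9, 69, 25 and 264 reads, and was 27.4-fold higher (14.2 to 60.5). Aurkb, the kinase of the chromosomal passenger complex, had 21, 123, 22 and 409, and Anln, a scaffold of the cleavage furrow, 12, 79, 14 and 242. Kif18b, Spc25, Aurkb and Anln all had under 2 CPM in wild type and were measured only through another library. The list's median was 1.81 in Itch KO and -0.0044 in WWP2 KO, each against the same wild-type library.

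Many promoters of mitotic genes carry the element called CHR, with the letters TTTGAA, which the DREAM complex binds to hold them off in resting cells, and CCAAT boxes bound by NF-Y. The promoter windows of Kif18b, Spc25 and Anln, the highest members for which a sequence was at hand, are shown for these elements (RefSeq, GRCm38.p6, with the gene's start 50 bases before the end). Capitals mark TTTGAA and CCAAT, read on both strands (TTCAAA and ATTGG on the other), and no 2 matches overlap.
Kif18b, chr11:102925075-102925374, minus strand: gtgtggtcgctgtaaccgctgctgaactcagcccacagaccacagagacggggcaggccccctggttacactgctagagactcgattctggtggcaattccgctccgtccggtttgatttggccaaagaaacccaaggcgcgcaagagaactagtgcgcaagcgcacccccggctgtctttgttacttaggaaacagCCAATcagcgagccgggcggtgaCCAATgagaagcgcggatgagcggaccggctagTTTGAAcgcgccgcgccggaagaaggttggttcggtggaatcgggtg
Spc25, chr2:69206164-69206463, minus strand: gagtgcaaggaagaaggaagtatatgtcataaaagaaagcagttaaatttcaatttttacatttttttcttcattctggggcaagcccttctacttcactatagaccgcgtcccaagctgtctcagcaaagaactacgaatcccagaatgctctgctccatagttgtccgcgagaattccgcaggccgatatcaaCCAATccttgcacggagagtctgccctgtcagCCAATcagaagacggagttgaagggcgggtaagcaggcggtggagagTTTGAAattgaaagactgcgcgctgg
Anln, chr9:22389157-22389456, minus strand: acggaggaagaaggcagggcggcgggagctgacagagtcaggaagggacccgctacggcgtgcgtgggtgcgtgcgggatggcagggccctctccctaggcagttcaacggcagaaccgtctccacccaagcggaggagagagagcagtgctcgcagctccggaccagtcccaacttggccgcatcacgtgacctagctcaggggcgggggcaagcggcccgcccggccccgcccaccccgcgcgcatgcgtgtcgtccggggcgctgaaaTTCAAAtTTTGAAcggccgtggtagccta
Kif18b and Spc25 each held 1 TTTGAA, within 100 bases of the end of the window, and 2 CCAAT before it, while Anln held 2 TTTGAA side by side on opposite strands and no CCAAT. Of the 41 genes, 35 had a promoter sequence, in 37 windows. TTTGAA was in 29 (78.4%) of these windows and in 17.9% of all 32851. CCAAT was in 78.4% of them and in 37.4% of all. Of 38 windows of 32 DNA replication genes, 13.2% held TTTGAA and 57.9% held CCAAT. A match of letters is a description and not a bound site.

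Of 39 measured DNA replication genes 14 were higher and 0 lower, and their median log2 ratio was 0.44. Of the 35 with 2 CPM in wild type, 10 were higher. The replication starter Mcm10 had 14, 83, 11 and 214 reads, Cdc45 of the replicative helicase 43, 128, 51 and 280, and Rrm2, a subunit of the enzyme that makes deoxynucleotides, 97, 424, 105 and 1157, an 11.1-fold difference (9.04 to 13.8). The polymerase delta subunits Pold1 and Pold2 stood at -0.80 and -0.81. Of 22 genes of G1 control 6 were higher and 1 lower, and of the 17 with 2 CPM in wild type 1 was higher and 1 lower. E2f2, E2f8, E2f7 and the kinase inhibitor gene Cdkn2c were the highest, with E2f2 at 22, 98, 28 and 431 reads. Cdk4, the kinase of early G1, was 2.59-fold lower (2.45 to 2.73) with 4499, 3839, 3745 and 1864 reads. Its partners Ccnd2 and Ccnd3 stood at -0.97 and -0.71.

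Genes that build ribosomes stood lower as a group. All 32 measured nucleolar and ribosome biogenesis genes lay below wild type in the labelled library, 12 of them at least 2-fold, with a median of -0.94. With total counts alone 8 of the 32 passed. Utp20, of the small subunit processome, had 6720, 5882, 6225 and 2552 reads, a 2.82-fold difference (2.70 to 2.96). Polr1b, a subunit of RNA polymerase I, was 2.56-fold lower (2.44 to 2.69) and Dkc1, which modifies ribosomal RNA, 2.40-fold (2.30 to 2.51). The highest member was Utp3 at -0.22. In Itch KO and WWP2 KO the medians of the list were 0.04 and -0.09. Cytosolic ribosomal protein genes, whose products the nucleolus assembles into ribosomes, had 0 of 38 past the rule in either direction and a median of -0.27, between -0.48 for Rpl5 and 0.01 for Rpl3.

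Transfer RNA synthetase genes, which charge amino acids for translation, numbered 20, of which 12 were at least 2-fold lower (10 with total counts alone) and 0 higher. Their median log2 ratio was -1.13. Lars, for leucine, had 8480, 5202, 7721 and 3280 reads, a 2.77-fold difference (2.66 to 2.89), Cars, for cysteine, was 2.78-fold lower (2.65 to 2.91) and Iars, for isoleucine, 2.58-fold (2.49 to 2.66). Qars stood highest, at 0.10. The wider list of targets of ATF4, the factor induced by amino acid shortage, held 25 genes, 14 of them lower and 1, with under 2 CPM in wild type, higher, around a median of -1.16. Amino acid carriers were spread over the list, from Slc38a2 at -0.32 to Slc7a11 at -4.59. Slc7a11, for cystine, had 203, 61, 103 and 7 reads. Slc7a3, for arginine and lysine, was 10.5-fold lower (6.24 to 18.7) with 156, 85, 177 and 16 reads, and Slc1a4, for neutral amino acids, 7.83-fold (6.63 to 9.30) with 1161, 546, 909 and 159. Trib3, a pseudokinase that ATF4 induces, had 454, 191, 279 and 61 reads. Of the 25, 6 lay above wild type. Stc2, a secreted glycoprotein, was 3.32-fold higher (2.11 to 5.40), and Asns, the asparagine synthetase, had 666, 762, 617 and 1156 reads at 1.62-fold (1.47 to 1.78). Against the same wild-type library these lists had medians of -0.41 and -0.43 in Itch KO and -0.15 and -0.27 in WWP2 KO.

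**Figure D4:**
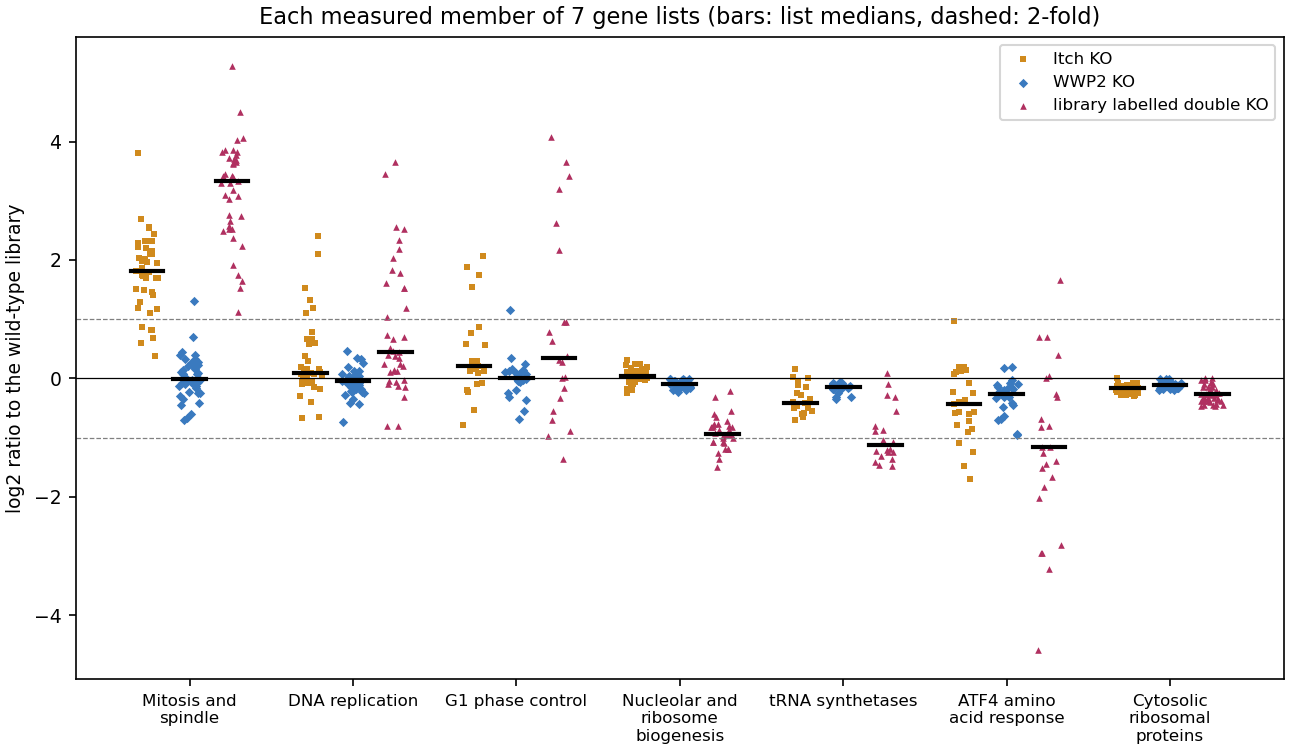
Log2 ratio to the wild-type library (y axis) of each measured member of 7 gene lists (x axis), with squares for Itch KO, diamonds for WWP2 KO and triangles for the library labelled double KO, bars at list medians and dashed lines at 2-fold. The triangles of mitosis genes lie above the upper dashed line, with a median of 3.34, and those of nucleolar genes all lie below 0, with a median of -0.94.

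Other metabolic lists differed in how many genes passed the rule. Of 25 glycolysis and hypoxia genes 5 were higher and 2 lower, with Slc16a3, the lactate exporter, 4.58-fold higher (3.43 to 6.22), Egln3, an oxygen sensor that HIF induces, 3.61-fold (3.17 to 4.11) and Gapdh 2.28-fold (2.14 to 2.42). The HIF-1 targets Pdk1 and Vegfa were 2.88-fold (2.57 to 3.23) and 4.31-fold (3.41 to 5.51) lower. Of 28 cholesterol and fatty acid genes 3 were higher, near the share over all genes, and 0 lower. The desaturase gene Scd2 stood highest at 2.20, and the median of the list was -0.14. Oxidative phosphorylation genes had 0 of 36 past the rule, between 0.56 and -0.45. Of 23 lysosome genes 6 were higher and 0 lower, with the protease genes Lgmn, 6.90-fold (5.27 to 9.17) on 61, 58, 53 and 451 reads, and Ctsa, 3.64-fold (3.35 to 3.95). For Lgmn the 3 other libraries lay together. Of 28 genes of ER folding 4 were higher, near the share over all genes, and 1 lower, with Atf6 at 1.60 and Herpud1 at -1.01, the latter not past the rule with total counts alone (-0.94).

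Interferon-stimulated genes had 7 of 30 higher (6 of the 29 with 2 CPM in wild type) and 4 lower. Ifit1, Ifit2 and Ifit3, which bind viral RNA, stood at -2.43, -1.87 and -3.40, and Zbp1, Oas3 and Mx1 at 1.36, 1.52 and 1.60. Of 20 survival and death genes 4 were higher (3 of the 19 with 2 CPM in wild type) and 2 lower. Of the p53 targets among them Pmaip1 was 5.28-fold higher (4.47 to 6.25) with 168, 458, 145 and 950 reads and Bbc3 4.65-fold lower (3.81 to 5.72) with 525, 150, 380 and 121. Of 30 genes of epigenetic enzymes 4 were lower and 1 higher. Hdac7, a histone deacetylase of lymphocytes, was 3.36-fold lower (3.24 to 3.49) and Dnmt3a, a DNA methyltransferase, 2.80-fold (2.66 to 2.95) with 5262, 4894, 5503 and 2013 reads.

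The labelled tissue was checked by markers. All 15 CD4 T cell genes were read in every library, and their summed level was 5871, 5845, 5820 and 5417 CPM. In the labelled library Cd4 was 2.16-fold higher (2.09 to 2.25), Cd3g and Thy1 were higher at 1.13 and 1.10, and Cd5 was 2.36-fold lower (2.29 to 2.44). CD8 T cell genes summed to 20.2, 48.8, 17.2 and 16.9 CPM, with Cd8a at 9 reads or fewer. Cd8b1, however, had 127, 267, 108 and 129 reads, and Eomes had 162, 498, 133 and 124. Under the minimum, Gzmk had 21, 43, 19 and 57 reads and Klrc1 39, 30, 31 and 3, in opposite directions. B cell genes summed to 3.75, 5.42, 3.21 and 1.72 CPM, with Pax5 at 0 reads in all libraries, and erythroid genes to at most 0.538 CPM. NK genes summed to 17.1, 11.1, 11.2 and 5.11 CPM, and all 3 measured members (Klrb1c, Klrd1 and Klrk1) were lower. Gamma delta and NKT genes summed to 84.4, 146.7, 90.6 and 29.0 CPM, mostly from Slamf7 (1067, 2161, 1181 and 398 reads), which other lymphocytes express too. Zbtb16, the factor of innate-like T cells, was 7.42-fold lower (5.31 to 10.6) with 277, 311, 293 and 40 reads, while the gamma delta T cell markers Cd163l1 (2, 1, 5 and 29 reads) and 5830411N06Rik (25, 27, 15 and 57) stood above wild type under the minimum. Neutrophil genes summed to at most 1.45 CPM, and platelet genes to 1.99.

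Among the remaining lists, some were higher in the labelled library. Dendritic cell genes summed to 30.7, 103.7, 26.3 and 110.2 CPM, so that Itch KO and the labelled library stood together above the other two. Cd74, H2-Aa, H2-Ab1, H2-Eb1 and Xcr1 were at least 2-fold higher, whereas Clec9a, Flt3 and Siglech had 0 reads in the labelled library. H2-Aa, H2-Ab1 and H2-Eb1 had under 2 CPM in wild type and were measured only through another library. Of the 4 members with 2 CPM in wild type, 2 were higher. Monocyte and macrophage genes summed to 6.06, 10.8, 5.83 and 22.9 CPM. Cd68, with 52, 103, 56 and 354 reads, made up most of the last value, and Csf1r had 2 reads, Lyz2 5 and C1qa 0. Eosinophil genes summed to 2.94, 7.73, 2.39 and 7.32 CPM, almost all from Ccr3, with Epx at 1 read or fewer. Plasma cell genes summed to 4055, 4376, 4059 and 2461 CPM, a sum mostly from Irf4, which activated T cells express. Of the 5 measured members 4 were higher in the labelled library (3 of the 4 with 2 CPM in wild type) and 1, Irf4, was lower. The higher ones were Sdc1 (7, 27, 13 and 172 reads), Ell2 (628, 2359, 614 and 2507), Prdm1 (228, 889, 211 and 3620) and Xbp1 (2293, 2674, 2488 and 4944). Igj had 9, 36, 20 and 18 reads and Tnfrsf17 none. Stromal and endothelial genes summed to 75.3, 62.7, 77.6 and 77.6 CPM, almost all from Pecam1, which T cells can express. Col1a1 had 1, 21, 3 and 209 reads, and Col3a1, Dcn and Lum had at most 2. The part of these cells in the differences between the libraries was not tested.

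**Figure D5:**
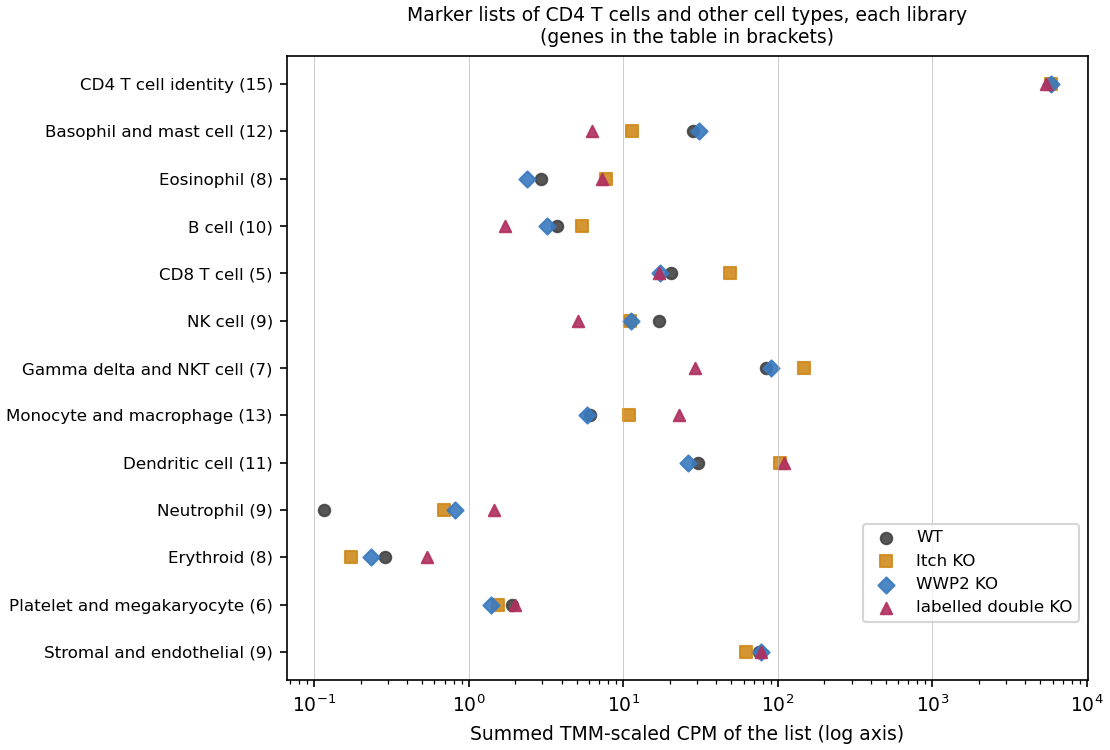
Summed TMM-scaled CPM (log axis) of marker lists for CD4 T cells and other cell types, 1 point per library, with the number of genes in the table in brackets. CD4 T cell genes lie between 5417 and 5871 CPM in the 4 libraries, and each other plotted list lies at or under 146.7 CPM. The plasma cell list is not plotted.

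The comparison was set beside one that uses none of its libraries, Itch KO against WWP2 KO. That one had 459 genes at least 2-fold higher in Itch KO (4.62% of the measured) and 114 lower (1.15%). Of its 459 higher genes, 408 were also among the 1220 that were higher in the labelled library against wild type, which is 88.9% of the first list and 33.4% of the second, and 6 were lower there. Of its 114 lower genes, 52 were among the 629, which is 45.6% and 8.27%, and 4 were higher. Over all measured genes, 12.3% were higher and 6.34% lower in the labelled library than in wild type. Both comparisons use the same minimum over all libraries. Genes low in wild type and WWP2 KO were therefore measured only through Itch KO or the labelled library, which favours shared higher genes. The overlap was not split by the wild-type level. Across the 9926 genes the log2 ratios of the 2 comparisons had a Pearson correlation of 0.61 and a Spearman correlation of 0.36, given as a description, since genes are not independent replicates. Both comparisons set 1 library with an Itch knockout label against 1 without.

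At the edge of the minimum, Mreg (12, 78, 16 and 35 reads) and Gk5 (35, 40, 43 and 22) were measured, and Cnih2 (25, 34, 29 and 54) and Fjx1 (43, 44, 40 and 12) were not.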

How the data were processed

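RNA was read by sequencing in 4 libraries, 1 per genotype. The values are raw counts of reads per gene symbol as deposited by the authors, unnormalized. The submitters' processing notes name HTSeq 0.7.1, TopHat 1.4.1 and Bowtie 1.0.0 as tools and mm9 as build. Neither annotation nor strand setting is given in the sources used here, so overlapping genes and near-identical copies can share reads. Total counts ran from 17130747 to 17990392, which gives the libraries nearly the same counting precision. Counts were scaled with TMM factors from all 4 libraries (0.983 to 1.03; edgeR 4.0.16, R 4.3.3). Log2 ratios use a prior count of 2, and folds use none, with an exact conditional binomial 95% interval. The labels name no molecular identifiers, and reads without them are not independent, so intervals and floors cover counting error only. The size rule was tested on simulated data. Alternatives were DESeq2 1.42.0 size factors, total counts, TMM on 2 libraries, other minimums (none, 10 CPM), prior counts of 0.5 and 5, and a 99% interval. The split at 2 CPM in wild type was added after the data were seen. No per-sample column of another series was present (0 columns).

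The 51 gene lists (37 of function or target, 1 of T cell identity and 13 of other cell types), the members and the comparison were chosen with earlier results of these data known. Named genes are Itch and Wwp2, the 12 largest rises and falls in CPM, the 12 highest and lowest folds at 10 CPM or more in wild type, up to 4 of the highest and lowest of a list, and all members of the ligase, cytokine, transcription factor and cell type lists. Some members that this rule names are not reported here. Rankings skip unnamed models, small RNAs, antigen receptor segments and Xist, Tsix and Y-linked genes. Promoters are RefSeq windows of GRCm38.p6, another build than mm9, matched by symbol. Windows on chr18 were left out, so genes there count as having no sequence, and shares of all windows cover the other chromosomes. Other steps ran in Python 3.11.15 (scipy 1.17.1, numpy 2.4.6, matplotlib 3.10.9, pandas 2.3.3).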

Additional observations from a re-analysis of the deposited data

How the results depend on the processing

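The counts of genes past the 2-fold rule, 1220 higher and 629 lower, stayed within 1.5 times under DESeq2 size factors (1219 and 635), total counts (1326 and 529), TMM on 2 libraries (1217 and 640), prior counts of 0.5 (1235 and 637) and 5 (1201 and 599), a 99% interval (1220 and 629) and, chosen after seeing the data, the split at 2 CPM in wild type (908 and 629). The count of higher genes was 1924 with no minimum and 666 at a minimum of 10 CPM, since these settings measure more or fewer genes, and the count of lower genes was 826 and 427. No named gene past the rule reversed its direction under any of the 8 alternatives. These settings move ratios too little to reverse a gene past the rule, so this is no check of direction. Total counts moved the median of all genes from -0.03 to 0.04 and the share of higher among all called genes from 66.0% to 71.5%. No paired analysis was possible because each genotype has 1 library and the comparison rests on no test. With 1 library a side, the difference between these libraries has no replicate check, and counting intervals do not cover variation between mice.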
